A study of Mus musculus with 5 samples.

Results

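Among cells sorted as neutrophils, a small group carried the transcripts of classical monocytes. Members were chosen by their own counts: at least 5 UMIs (unique molecular identifiers, each standing for 1 captured mRNA molecule) of Ly6c2, F13a1 and Ccr2 together and at least 1 of Csf1r. They also had to hold under 10 UMIs of Ngp, under 3 of C1qa, C1qb and C1qc together, and under 2 of Cd79a and Cd3e together. The rule found 1294 of 36720 kept cells, 765 of 19505 (3.92%, exact 95% interval 3.65 to 4.20) in the pool named YO1 and 529 of 17215 (3.07%, 2.82 to 3.34) in YO2. All cells came from C57BL/6 mice, an inbred laboratory strain, kept at steady state under specific pathogen-free conditions, with no genetic change or treatment named in the labels. Each pool mixed DAPI-negative, CD11b+ Ly6G+ sorted cells of spleen, liver, lung, intestine, blood and bone marrow from young mice (10 weeks by the sample labels, 8 weeks by the design text) and mice of 20 months. Whole transcriptomes were captured in microwells on the BD Rhapsody system, and the experiment was done 2 times. Barcodes carry the pool only, so neither tissue nor age could be assigned to a cell, and the number of mice in a pool is not given in the sources used here.

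Classical monocytes are bone marrow derived phagocytes that leave the marrow through the chemokine receptor CCR2 and circulate in blood with high surface Ly6C. They depend on the growth factor receptor CSF1R, and they can enter tissues as precursors of macrophages and of monocyte-derived dendritic cells, or turn into nonclassical monocytes that patrol vessel walls. CD11b is present on monocytes as well as on neutrophils, whereas Ly6G is used as a neutrophil marker in the mouse.

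The members were larger libraries than the cells around them. Their median was 3497 UMIs and 1623 genes in YO1 and 4947 UMIs and 2024 genes in YO2, against medians of 1001 and 1308 UMIs in mature neutrophils (7399 and 6679 cells with at least 2% of UMIs from S100a8 and S100a9, under 3 UMIs of Ngp and none of Csf1r). Mitochondrial transcripts made up a median of 4.35% and 4.45% of UMIs in members and 0.487% and 0.371% in mature neutrophils. Summed over members, 3093606 UMIs of YO1 and 2816031 of YO2 lay behind the values below, which are UMIs scaled to a sum of 1000000 (CPM). No doublet caller was run and no cell was removed as a doublet. The 2 pools shared 406 barcode numbers, 2 of them among members, about which nothing further was tested.

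The genes of the rule were not all present in every member. Ly6c2, a surface protein of the Ly6 family, had a UMI in 632 of 765 and 405 of 529 members, the receptor gene Ccr2 in 733 and 504, and F13a1, the A chain of coagulation factor XIII, in 573 and 369. All 3 were found together in 492 members of YO1 (64.3%) and 320 of YO2 (60.5%). Cells just outside the rule, with a sum of 3 or 4 UMIs, numbered 161 and 109, and cells just inside, with 5 or 6, numbered 95 and 57. Fn1 stood at 178 and 74.3 CPM just outside, 298 and 165 CPM just inside, and 1221 and 969 CPM in members with at least 7 UMIs. Cd74, the MHC class II invariant chain, ran the other way, at 10186 and 12657 CPM just outside, 12484 and 14213 CPM just inside and 4284 and 7227 CPM at 7 or more. Members close to the threshold thus held less Fn1 and more Cd74 than the bulk of members in both pools.

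Ms4a6c and Fn1 were markers of the label that the rule did not use. After each cell was thinned to 1000 UMIs, Ms4a6c was found in 74.2% and 70.8% of members of YO1 and YO2 and Fn1 in 52.96% and 43.6%. In B cells, which should lack both, the shares were 1.02% and 0.590% for Ms4a6c and 0% and 0.295% for Fn1. These B cells held plasma cell transcripts at 129744 and 473065 CPM, which lowers the shares of other genes in them. In mature neutrophils they were 0.618% and 0.310% for Ms4a6c and 0.269% and 0.172% for Fn1. The thinned groups held 761 and 528 members, 3720 and 5808 neutrophils and 197 and 678 B cells, with 4, 1, 3679, 871, 54 and 17 shallower cells left out in the same order. Median depths before thinning were 1297 and 3435 UMIs in B cells, and unthinned shares of members were 94.1% and 90.5% for Ms4a6c and 72.2% and 64.5% for Fn1. Ms4a6c was less particular to members among nearer populations. After thinning it was found in 342 of 617 and 308 of 560 nonclassical monocytes. In C1q macrophages it was found in 95 of 258 and 179 of 541 cells. Fn1 was found in 21 and 12 of these nonclassical monocytes and in 5 and 19 of these C1q macrophages. The sort marker gene Ly6g was found in 1.71% and 1.70% of thinned members, 12.7% and 7.09% of neutrophils and 1.02% and 0.147% of B cells. Without thinning, 40 and 35 members held a Ly6g UMI. Ly6g transcripts in members were thus rarer than in neutrophils, while the surface protein of the sort was not analysed here.

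Against mature neutrophils of the same pool, the members were described by the ratio of CPM after adding 1 CPM. Since the same transcripts chose the cells, these contrasts are a description and carry no test. Of 6687 genes with a mean of at least 10 CPM in each pool, 1048 (15.7%) were at least 4-fold higher in monocytes in both pools and 228 (3.41%) at least 4-fold lower. The median log2 ratio of all compared genes was 0.57 in YO1 and 0.51 in YO2, and with each pool centred on its median the split became 659 higher and 434 lower. Without the members in which S100a8 and S100a9 reached 0.2% of UMIs, the genes at least 4-fold lower numbered 374. Across genes, the ratios of the pools had a Pearson correlation of 0.964, over genes of the same 2 libraries, which are not independent replicates.

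**Figure D1:**
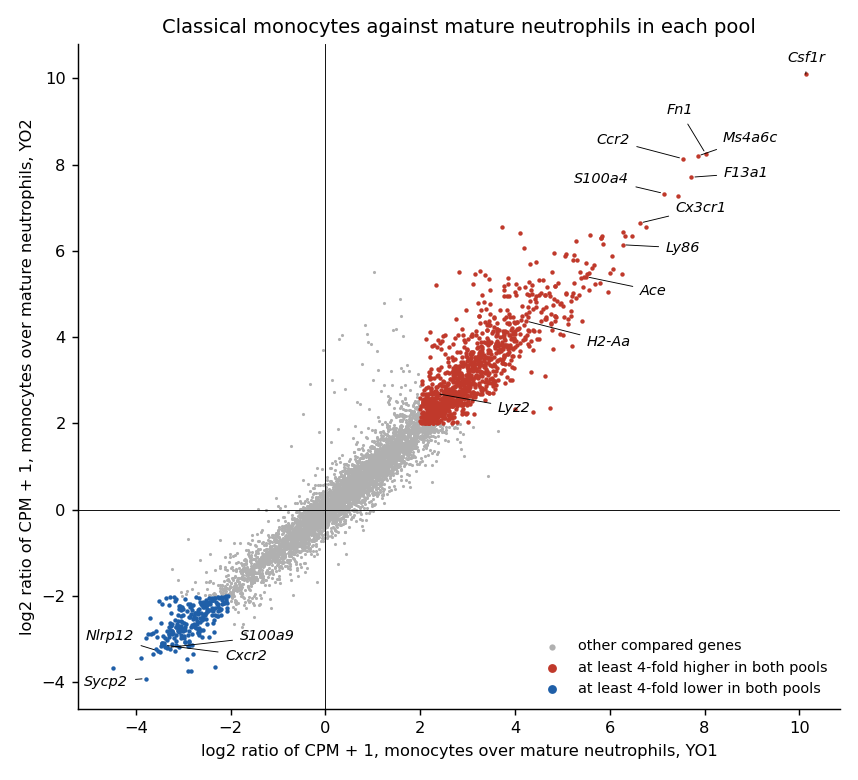
Log2 ratio of CPM + 1 in classical monocytes over mature neutrophils for 6687 genes (points), with YO1 on the horizontal and YO2 on the vertical axis. Red points are the 1048 genes at least 4-fold higher and blue points the 228 genes at least 4-fold lower in both pools, and the points lie along a diagonal. Csf1r, at the upper right, was required in members and absent from the neutrophils by the rule.

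The 15 genes that stood highest, leaving the genes of the rule aside, included secreted, surface and signalling proteins. Fn1 encodes fibronectin, a matrix protein, and stood at 1118 and 895 CPM against 3.29 and 1.95 CPM in neutrophils of YO1 and YO2. Without the added 1 CPM that was a ratio of 340.2 (95% counting interval 233 to 517) in YO1 and 459 (95% counting interval 294 to 764) in YO2. S100a4, a calcium-binding protein, stood at 1484 and 1185 CPM against 9.49 and 6.36 CPM. Cx3cr1, the receptor for fractalkine, stood at 520.4 and 448 CPM against 4.26 and 3.49 CPM. Ly86, the partner protein of the surface receptor Cd180, stood at 967 and 889 CPM against 11.6 and 11.6 CPM, and Cd180 itself at 154 and 158 CPM against 5.60 and 6.66 CPM. Neutrophils held 19 to 113 UMIs of Fn1, S100a4, Cx3cr1 or Ly86 per pool, so the size of these ratios rests on few neutrophil UMIs. Tifab, an inhibitor of the adaptor TIFA, had log2 ratios of 6.77 and 6.55, and Pld4, an endolysosomal nuclease, 6.46 and 6.34. Ptpro, a receptor tyrosine phosphatase, was at 6.33 and 6.35 and Plxnb2, a semaphorin receptor, at 5.81 and 6.29. Mcub, a subunit of the mitochondrial calcium uniporter, was at 5.58 and 6.36, Tppp3 at 5.83 and 6.34 and Nxpe4 at 5.86 and 6.17.

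4 of the 15 genes belonged to the Ms4a family of membrane-spanning proteins, which lie together on chromosome 19. Ms4a6c stood at 1522 and 1499 CPM against 5.60 and 4.10 CPM in neutrophils, Ms4a4c at 509 and 504 CPM against 1.95 and 2.26 CPM and Ms4a6b at 352 and 363 CPM against 3.53 and 3.18 CPM. Ms4a6d was at 117 and 192 CPM against 1.10 and 1.44 CPM, and it was the member of the 4 with the largest pool difference, 0.71 on the log2 scale from YO1 to YO2. In GRCm38, GENCODE vM21 places Ms4a4c at chr19:11404770-11427246, Ms4a6c at chr19:11469366-11482192 and Ms4a6b at chr19:11516512-11531256, on the plus strand, and Ms4a6d at chr19:11586604-11604849 on the minus strand. The promoter windows of Ms4a6c and Ms4a6b are shown because these neighbours stood high together. RefSeq on GRCm38.p6 gives them as chr19:11469118-11469417 and chr19:11518309-11518608, plus strand, 250 bases before to 50 after the start. The Ms4a6c window spans the GENCODE start, but the Ms4a6b window lies within the GENCODE gene, past its start. Positions of the run below are relative to the RefSeq starts. Capitals mark the longest run of letters that both windows share.
Ms4a6c: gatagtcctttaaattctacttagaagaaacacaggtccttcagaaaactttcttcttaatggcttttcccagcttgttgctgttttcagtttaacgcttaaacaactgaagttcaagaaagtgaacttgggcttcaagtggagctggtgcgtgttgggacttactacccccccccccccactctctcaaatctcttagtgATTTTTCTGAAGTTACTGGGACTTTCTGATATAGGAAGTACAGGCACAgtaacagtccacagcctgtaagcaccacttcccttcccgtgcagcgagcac
Ms4a6b: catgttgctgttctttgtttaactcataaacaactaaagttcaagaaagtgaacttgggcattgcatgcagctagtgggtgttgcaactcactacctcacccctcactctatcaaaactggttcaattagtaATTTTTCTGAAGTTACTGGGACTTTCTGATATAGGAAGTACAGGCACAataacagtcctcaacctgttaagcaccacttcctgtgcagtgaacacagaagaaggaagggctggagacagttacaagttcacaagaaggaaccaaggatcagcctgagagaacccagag

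The shared run is 48 bases long and ends 2 bases before the start in Ms4a6c and 71 bases before it in Ms4a6b. Among the promoter windows of 27025 genes, searched on both strands, these were the only 2 that held it. In a gapped alignment 192 of the 300 bases were identical (64.0%), and 158 of 300 (52.67%) between the Ms4a6c and Ms4a4c windows. Whether reads could be split between such related genes depends on the transcript ends that this assay reads. The last 400 bases of the longest coding transcripts were 54.5% identical between Ms4a6c and Ms4a6b, but 96.5% identical between Ly6c2 and Ly6c1 and 81.5% between Ly6c2 and Ly6g. Ly6c1 was listed at 6.46 and 6.04 CPM in members, and how reads shared by Ly6c2 and Ly6c1 were assigned is not given in the sources used here. In the same annotation Ly6c2 lies at chr15:75108158-75111970, Ccr2 at chr9:124101950-124113557, F13a1 at chr13:36867178-37050244 and Fn1 at chr1:71585520-71653200.

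Of the 15 genes that stood lowest, Cxcr2 and Stfa2l1 are on the neutrophil list. Cxcr2, the chemokine receptor that draws neutrophils to CXC chemokines, was at 283 and 435 CPM against 3018 and 3842 CPM in neutrophils. Nlrp12, a NOD-like receptor, was at 17.8 and 19.2 CPM against 217 and 194 CPM, and the chitinase-like gene Chil1 at 45.6 and 49.7 CPM against 551 and 473 CPM. Slc2a3, a glucose transporter, was at 52.04 and 60.01 CPM against 682 and 451 CPM and Arg2, the mitochondrial arginase, at 55.9 and 75.99 CPM against 616 and 656 CPM. These 5 genes stood lower in members by log2 ratios between -3.69 and -2.89 in both pools. Sycp2, known as a meiotic chromosome axis protein, was at 4.85 and 4.26 CPM against 80.1 and 78.3 CPM, on 15 and 12 UMIs in members. The stefin genes, inhibitors of cysteine proteases, were at -3.88 and -3.44 (Stfa2) and -3.34 and -3.18 (Stfa2l1), and reads of these near copies may be split between them. H2-Q10, an MHC class Ib gene with close relatives in the same cluster, was at -3.47 and -3.15. Log2 ratios were -2.89 and -3.74 for the metalloreductase gene Steap4, -3.75 and -2.88 for Cd101, -3.44 and -3.08 for Lrg1 and -3.55 and -2.95 for the dehydrogenase gene Dhrs9. Entpd3, an ectonucleotidase, was at -2.83 and -3.74 and Gpat3, an acyltransferase of glycerolipid synthesis, at -3.44 and -3.11, each on at most 17 UMIs in a pool's members.

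Gene lists were read by their counts and medians beside the background of 15.7% higher and 3.41% lower. Of 20 compared genes of the classical monocyte list, 13 were at least 4-fold higher and none lower, with a median log2 ratio of 4.53 in YO1 and 4.48 in YO2. Plac8, a small cysteine-rich protein, stood at 2669.7 and 2758 CPM against 50.5 and 71.98 CPM, and Vcan, which encodes the matrix proteoglycan versican, at 38.1 and 73.9 CPM with 0 UMIs in neutrophils of either pool. Chil3, a chitinase-like protein of myeloid cells, stood at 892 and 748 CPM against 62.3 and 32.6 CPM. Tgfbi, Mgst1 and Hp on the same list did not stand apart in that direction, with log2 ratios of -0.09 and -0.13, 0.10 and 0.01 and -1.60 and -1.62. Of 14 genes of the nonclassical list, 7 were higher and none lower, with medians of 2.32 in YO1 and 3.09 in YO2.

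Regulators and receptors split. Among 26 transcription factor genes, 10 were higher and 1 lower. Irf8 and Klf4, needed for monocyte development, stood at 365 and 417 CPM against 16.1 and 13.02 CPM and at 220.1 and 339 CPM against 9.74 and 9.54 CPM. Irf5, an interferon regulatory factor, was at 147 and 130.3 CPM against 22.3 and 17.7 CPM. Spi1, the master regulator of myeloid genes, and Cebpb, active in both lineages, were at -1.01 and -0.93 and -1.42 and -0.93, and Mxd1, an antagonist of Myc, at -3.22 and -2.85. Among 15 trafficking genes, 3 were higher and 2 lower. The integrin genes Itgb1 and Itgb7 were at 2.33 and 2.73 and 2.24 and 2.17, while Itgam, which encodes CD11b of the sort, was at 489 and 517 CPM in members and 692 and 709.6 CPM in neutrophils. The chemokine receptor gene Ccr1 was at -3.09 and -2.84. Of 20 cytokine and growth factor receptor genes, 2 were higher and 3 lower. Flt3, the receptor of dendritic cell precursors, was at 29.1 and 44.4 CPM, and Csf3r, the receptor for the neutrophil growth factor G-CSF, at 269 and 348 CPM against 2283 and 2443 CPM. Among 6 Fc receptor genes 1 was higher, the high-affinity receptor gene Fcgr1, at 105 and 88.1 CPM against 2.19 and 0.513 CPM. Fcgr2b was at 1.43 and 4.17, and its neutrophil level was 162 and 27.8 CPM. Endothelial markers moved with that difference: the 10 genes of the list summed to 526 and 10.5 CPM in neutrophils and to 89.9 and 16.7 CPM in members of YO1 and YO2, and their part in it was not tested.

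Many lysosomal and MHC class II genes stood higher in members. Of 24 lysosome and protease genes, 14 were higher and 1 lower, with medians of 2.33 in YO1 and 2.30 in YO2. Ctss, the cathepsin that trims the class II invariant chain, stood at 2939 and 3471 CPM against 99.8 and 157 CPM, and Ctsc, the cathepsin that activates granule proteases, at 516 and 532 CPM against 13.02 and 16.1 CPM. Psap, the precursor of saposins, stood at 7104 and 8772 CPM against 1261 and 1327 CPM and Lyz2, lysozyme, at 25128 and 22629 CPM against 4942 and 3496 CPM. The exception was Ctse, at -2.38 and -2.08. Of 8 MHC class II genes, 7 were higher, with medians of 4.10 in YO1 and 4.51 in YO2. H2-Aa stood at 2946 and 4374 CPM against 156 and 209 CPM, Cd74 at 5201 and 7874 CPM against 314 and 382 CPM and Ciita, the class II transactivator, at 64.97 and 136 CPM against 4.14 and 4.51 CPM. These levels were uneven among members. The remaining members defined below, limited to under 2% of UMIs from H2-Aa, H2-Ab1, H2-Eb1 and Cd74, held H2-Aa at 227 and 344 CPM. They held Cd74 at 1017 and 1109 CPM and Ciita at 21.8 and 29.8 CPM. MHC class I genes did not form such a block, with 1 of 14 higher and medians of 0.46 in YO1 and 0.61 in YO2. That gene was Psmb10, a subunit of the immunoproteasome, at 2.84 and 2.84. Pattern recognition genes divided 5 higher and 2 lower of 21, with Tlr7, a sensor of single-stranded RNA, at 3.94 and 3.31, Pycard, the inflammasome adaptor, at 4.06 and 4.20, and the lectin receptor gene Clec4d at -3.24 and -2.80.

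Interferon-stimulated genes lay near the background, with 6 of 36 higher, 2 lower and medians of 0.40 in YO1 and 0.09 in YO2. Mx1, an antiviral GTPase, was at 4.84 and 4.49 and Phf11b at 5.53 and 5.48, whereas Ifitm1 and Slfn4 were at -3.29 and -2.96 and -2.65 and -2.61. In the oxidative burst and antimicrobial list 1 of 11 genes was higher and 3 lower: Cybb, the catalytic subunit of the phagocyte oxidase, stood at 2685 and 2557 CPM against 219 and 126 CPM, while its partner gene Cyba was at 0.15 and 0.15. Of 21 respiratory chain genes 3 were higher and none lower, with medians of 1.16 in YO1 and 1.03 in YO2. Cycs, cytochrome c, was at 3.16 and 2.89. Glycolysis and hypoxia genes showed 2 of 22 lower and none higher, with medians of -0.37 in YO1 and -0.45 in YO2. Of 17 coagulation and matrix genes 4 were higher and 3 lower. Coagulation factor X (F10) stood at 74.99 and 56.1 CPM against 1.70 and 0.923 CPM, and the matrix metalloproteinase genes Mmp9 and Mmp8 at -3.38 and -2.97 and -2.34 and -2.27. Of 19 cytokine and chemokine genes 2 were higher, among them Ccl9 at 800.0 and 717 CPM against 31.4 and 21.7 CPM, and 3 lower, among them Il1b at 1126 and 2604 CPM against 10024 and 11015 CPM. Of 10 tissue macrophage genes 4 were higher and 1 lower, with Apoe, an apolipoprotein, at 1128 and 743 CPM against 152 and 96.9 CPM, while the resident macrophage markers Vsig4 and Cd5l had 0 UMIs in members.

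**Figure D2:**
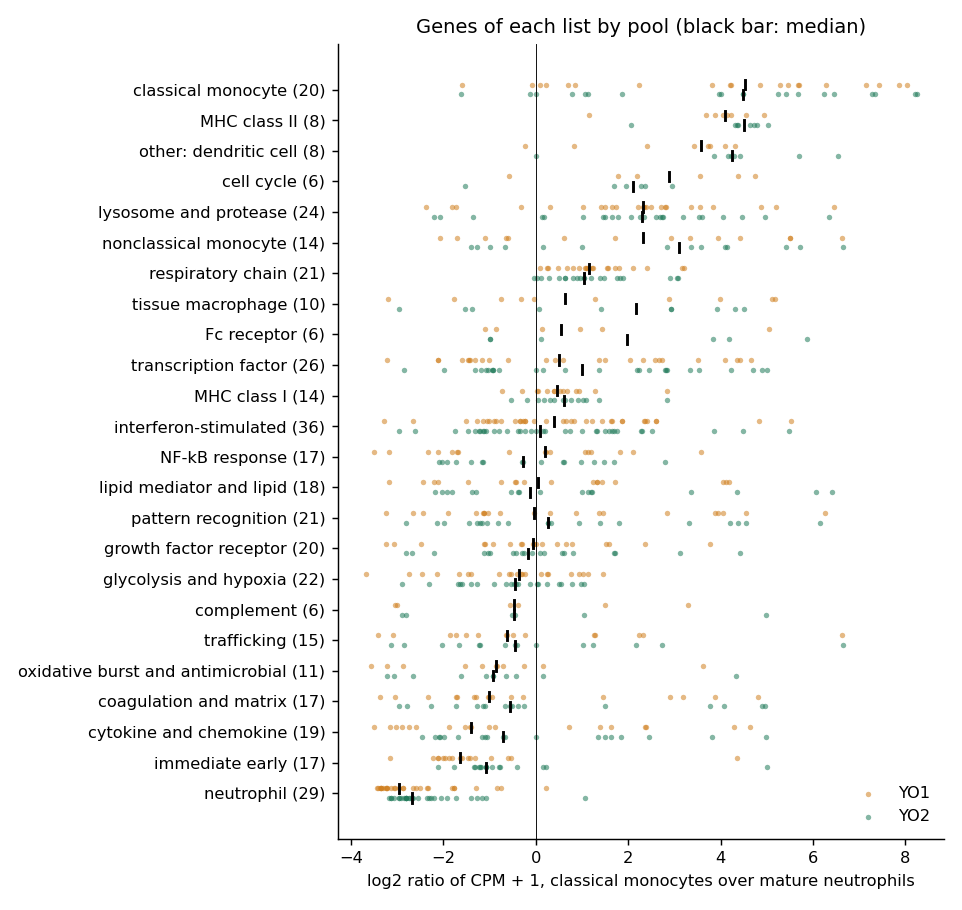
Log2 ratio of CPM + 1 in classical monocytes over mature neutrophils for the compared genes of each list with at least 5 of them (points; YO1 orange, YO2 green), with black bars for the medians and the number of compared genes in brackets. Classical monocyte and MHC class II genes lie highest and neutrophil genes lowest in both pools.

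Of 29 compared neutrophil genes, 22 were at least 4-fold lower in members and none was higher, with medians of -2.96 in YO1 and -2.68 in YO2. Their transcripts were nevertheless present in members, and unevenly. S100a8 and S100a9, the subunits of calprotectin, made up a median of 0.0684% and 0.0471% of a member's UMIs, but the 25% of members with the most held 92.3% and 85.8% of these UMIs. At least 0.2% was reached by 236 members of YO1 and 193 of YO2, whose median depth was 4129 and 5714 UMIs against 3296 and 4588.5 UMIs in the other members. At least 2% was reached by 72 and 47. Over the 29 compared genes of the list, which does not hold S100a8 or S100a9, the median level in members was 12.9% of the neutrophil level in YO1 (lowest 9.11%, highest 117%) and 15.5% in YO2 (10.9% to 214%). Split at 0.2% calprotectin, a cut chosen after the values were seen, the median was 30.01% and 31.2% in members above it and 2.59% and 4.77% in those below it. It was 22.8% and 24.8% in nonclassical monocytes, 23.1% and 22.3% in C1q macrophages and 7.02% and 4.91% in B cells. B cells were chosen to hold under 2% of UMIs from S100a8 and S100a9, a limit that the members did not have. Plasma cell genes summed to 129744 and 473065 CPM in B cells of YO1 and YO2. That lowers the CPM and thinned shares of other genes in B cells, more so in YO2. After thinning, S100a8 was found in 41.1% and 42.2% of members, 56.9% and 56.8% of nonclassical monocytes and 40.6% and 25.96% of B cells, with a mean of 3.10 and 2.87 UMIs per member and 1.03 and 0.829 per B cell. Whether free RNA or a second cell in the same well contributed was not tested. Several genes stood well above these medians in the members under 0.2%: Cd177 at 109.9% and 256%, Wfdc17 at 54.8% and 37.5%, Ltf at 35.4% and 39.3% and Anxa1 at 30.4% and 37.2%. Btg1, Msrb1 and Tnfaip2 stood there at 22.3% and 28.6%, 21.7% and 19.04% and 20.5% and 19.7%, and Padi4, S100a11 and Mmp8 at 11.5% and 14.02%, 9.08% and 11.2% and 8.70% and 11.4%. Cd177 is also on the classical monocyte list. Members could hold up to 9 UMIs of Ngp and the neutrophils under 3, and the part of this unlike limit in these percentages was not tested. Ltf and Btg1 were not particular to these members, at 33.5% and 49.8% and 34.4% and 13.9% in B cells. Cd177, Wfdc17 and Anxa1 stood at 0% and 4.41%, 8.59% and 4.50% and 10.1% and 4.04% in B cells.

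**Figure D3:**
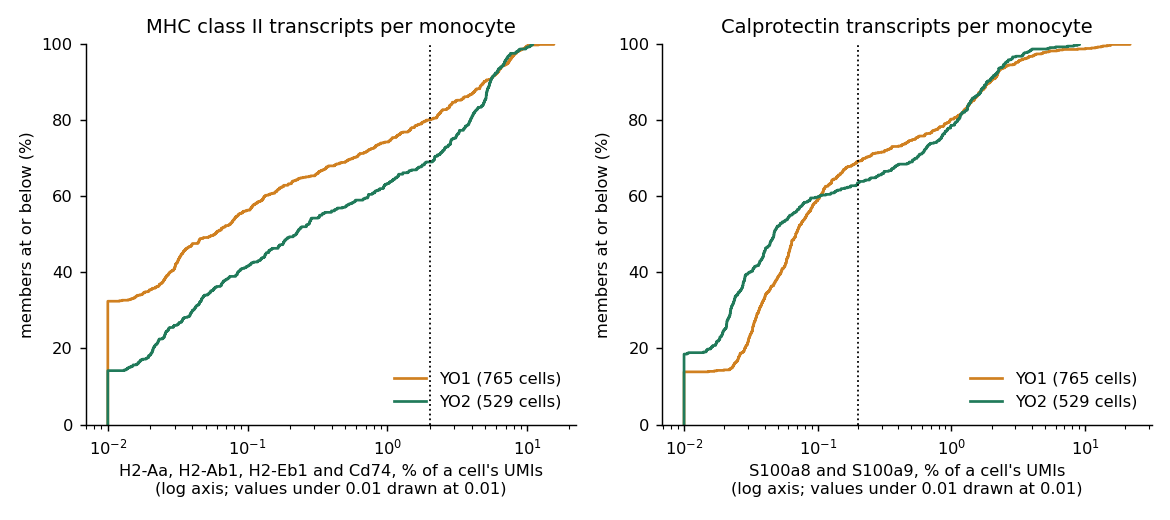
Cumulative percentage of members (vertical axis) by the share of a cell's UMIs on a log axis, from MHC class II genes (left) and from S100a8 and S100a9 (right), for YO1 and YO2; dotted lines mark 2% and 0.2%. Members at or above the lines were 152 and 164 for MHC class II and 236 and 193 for calprotectin.

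Markers of other cells were present in members at the following summed levels. The 13 T and NK cell genes summed to 89.9 and 114 CPM in members and 29.2 and 35.4 CPM in neutrophils, and 3 of them in YO1 and none in YO2 were at 0 in members. Nkg7 of this list stood at 521 CPM in the 22 azurophil members of YO1 described below. It stood at 1.12 CPM in the remaining members of that pool. The rule limited Cd3e of this list, and Cd79a of the B cell list, in members but not in neutrophils. The 10 B cell genes summed to 222 and 158 CPM against 255 and 363 CPM in neutrophils and 22691 and 8960.1 CPM in B cells. The 8 plasma cell genes summed to 442 and 1515 CPM in members and 425 and 2329 CPM in neutrophils, a difference between the pools that both populations shared. Eosinophil, basophil and mast cell, epithelial and liver cell, and erythroid and platelet lists summed to 30.7 and 34.8, 3.23 and 12.8, 26.2 and 37.6 and 5.50 and 4.26 CPM in members. The same lists summed to 61.8 and 54.3, 21.8 and 8.41, 17.2 and 92.5 and 12.5 and 8.20 CPM in neutrophils.

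Members also varied in monocyte genes, and they were divided into ranges by cuts chosen after the values were seen. The ranges are not cell types, and the genes used for a cut are not findings within it. MHC class II genes (H2-Aa, H2-Ab1, H2-Eb1 and Cd74) reached 2% of UMIs in 152 members of YO1 (19.9%) and 164 of YO2 (31.0%), 37 and 27 members lay between 1.5% and 2.5%, and 241 and 73 held none of these UMIs. Outside that range and the azurophil one, 103 members (13.5% of all) and 83 (15.7%) held at least 2 UMIs of Ace and Treml4, genes of nonclassical monocytes. The azurophil range was 22 members of YO1 and 0 of YO2 (which allows a share of up to 0.567%) with at least 10 UMIs of the azurophil granule genes Mpo, Elane, Prtn3 and Ctsg, and 5 members of YO1 lay between 5 and 20. The remaining 488 (63.8%) and 282 (53.3%) had none of these features.

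Among the 3 ranges with cells in both pools, the remaining members had the highest levels of Fn1, Ly6c2 and Chil3. Fn1 stood there at 1673 and 1482 CPM, against 579 and 471 CPM in the Ace or Treml4 range and 311 and 271 CPM in the MHC class II range. Ly6c2 was at 1775 and 1742, 1024 and 1252 and 649.6 and 458 CPM in the same order, and Chil3 at 1168 and 1088, 798 and 790.4 and 459 and 255 CPM. Ms4a6c was at 1668 and 1752, 1444 and 1716 and 1442 and 1048 CPM. Across thinned members, the MHC class II UMIs had a Spearman correlation of -0.38 with Fn1 in YO1 (761 cells) and -0.40 in YO2 (528 cells), and of -0.05 and -0.12 with Ms4a6c, over cells of 1 library each at equal depth. Members with more MHC class II transcripts thus held less Fn1 in both pools. Ms4a6c was also lower in the MHC class II range than in the remaining members, at 1442 against 1668 CPM in YO1 and 1048 against 1752 CPM in YO2.

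Against the remaining members, 17 of 2902 genes were at least 4-fold higher in the MHC class II range in both pools and 1, Fn1, lower. H2-Aa, H2-Ab1, H2-Eb1 and Cd74 among the 17 set the range, and Ace was limited in the remaining members by their definition. Mgl2, a galactose-binding lectin of macrophages and dendritic cells, stood at 309.6 and 406 CPM against 0 and 2.18 CPM. Cd209a, a C-type lectin of dendritic cells, stood at 334 and 581 against 16.2 and 42.1 CPM, and the chemokine gene Ccl17, found in 9 and 22 cells of the range, at 101 and 115 against 0 and 0.726 CPM. Ciita stood at 245 and 323 against 21.8 and 29.8 CPM, Flt3 at 86.6 and 88.97 against 18.4 and 21.8 CPM, and Ccnd1, cyclin D1, at 109 and 259 against 8.37 and 3.63 CPM. Zbtb46 and Itgax, also on the dendritic cell list, stood at 12.8 and 43.5 against 1.12 and 0.726 CPM and at 212 and 239 against 25.1 and 38.5 CPM. Of the rule's genes, Ly6c2 had a UMI in 92 of 152 and 74 of 164 cells of the range and Ccr2 in 150 and 162. Flt3 and Cd209a together reached 2 UMIs in 54 and 62 members, of which 41 and 48 were in the MHC class II range. Of the dendritic cell list, Xcr1 and Clec9a, markers of the cross-presenting lineage, were at 11.96 and 62.1 and 15.8 and 35.9 CPM over all members, and Siglech, a plasmacytoid marker, at 0.646 and 4.97 CPM. Of 8 compared genes of the list, 6 were at least 4-fold higher than in neutrophils and none lower. Its 15 genes summed to 596 and 963 CPM in members and to 167 and 158 CPM in neutrophils, and a share of dendritic cells among members was not tested. Without the MHC class II range, members were 3.14% of kept cells in YO1 and 2.12% in YO2.

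In the Ace or Treml4 range, 3 of 2941 genes were at least 4-fold higher than in the remaining members in both pools: Ace and Treml4, which set the range, and Cd36, a scavenger receptor for lipids. Cd36 stood at 223 and 199.8 against 21.8 and 17.4 CPM. Fcgr4, an Fc receptor of nonclassical monocytes, was at 371 and 289 against 94.8 and 87.9 CPM, and Nr4a1, the nuclear receptor needed for that lineage, at 1341 and 1863 against 559.6 and 1148 CPM. F13a1 was lower, at 358 and 286 against 1233 and 1038 CPM, but F13a1 is a gene of the rule. For the 22 members with azurophil transcripts only YO1 could be compared: 200 of 3359 genes were at least 4-fold higher and 248 lower than in the remaining members of that pool, the genes that set the range included, in cells with a median of 12473.5 UMIs against 3376.5. They held Ms4a3, a marker of granulocyte-monocyte progenitors, at 525 CPM, Myb, a progenitor transcription factor, at 369.6 CPM and Cd34, a progenitor surface marker, at 192 CPM. The remaining members stood at 1.67, 2.79 and 1.67 CPM for the same genes. Of the 22, 19 held at least 3 UMIs of the proliferation genes Mki67 and Top2a together, as did 47 members of YO1 and 6 of YO2 in all. Csf1r, Fn1 and Lyz2 were lower in this range, at 233, 107 and 4620.2 CPM against 1132, 1673 and 30834 CPM in the remaining members of YO1.

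**Figure D4:**
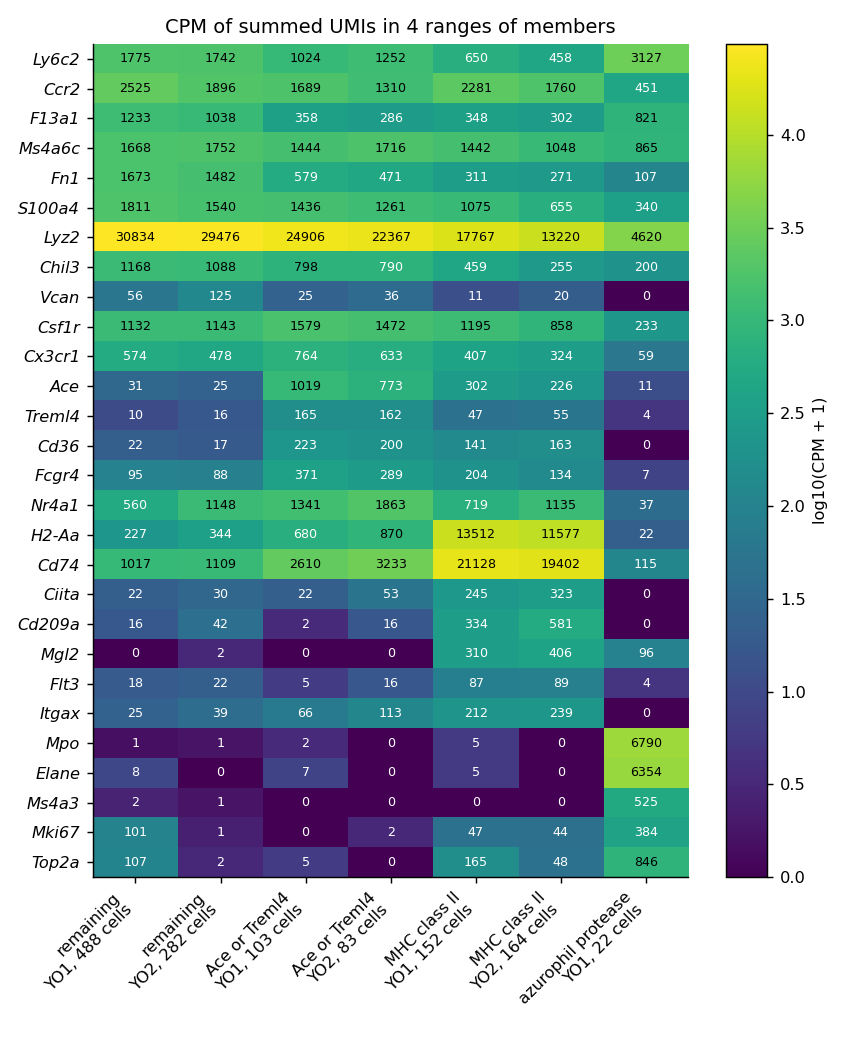
CPM of summed UMIs (numbers, rounded to whole CPM, and colour on a log10 scale) of 28 genes (rows) in 4 ranges of members by pool (columns); no member of YO2 fell in the azurophil range. Fn1 is highest in the remaining members, and Mpo, Elane and Ms4a3 stand high in the 22 azurophil members.

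The nearest other populations were compared in the same way, without a test. Genes that set the populations, such as Ly6c2, Ccr2, F13a1, Ace and C1qa, were left out of these counts. After thinning, Ly6c2 was found in 60.4% and 54.7% of members and in 4.05% and 3.04% of nonclassical monocytes. Against nonclassical monocytes (624 and 563 cells), 4 of 2960 other genes were at least 4-fold higher in members in both pools and 21 lower. The 4 were Fn1, at 1118 and 895 against 42.7 and 33.7 CPM, Gas7, at 145 and 128 against 10.5 and 9.36 CPM, Ifi203, at 424 and 341 against 55.5 and 42.1 CPM, and Slfn5, at 523 and 615 against 112 and 117 CPM. Lower in members were Cd300e, an activating receptor, at 22.6 and 19.5 against 425 and 376 CPM, S1pr5, a receptor for sphingosine phosphate, at 23.6 and 22.7 against 204 and 199.9 CPM, and Pparg, a lipid-sensing nuclear receptor, at 19.1 and 21.3 against 127 and 169 CPM. Against C1q macrophages (272 and 559 cells), 17 of 2953 genes were higher and 62 lower. Plac8 was at 2669.7 and 2758 against 223 and 203 CPM, Hpse, which encodes heparanase, at 99.6 and 99.1 against 8.53 and 9.32 CPM and Ifitm6 at 945 and 769 against 144 and 102 CPM. Vcam1, an adhesion molecule, was at 4.85 and 0 against 445 and 218 CPM, Igf1, a growth factor of macrophages, at 0.646 and 0.355 against 187 and 162 CPM and Folr2, a folate receptor, at 0 and 1.07 against 152 and 159 CPM. Vcam1, Igf1 and Folr2 were thus macrophage genes close to 0 in members.

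The pools could be set side by side only as 2 libraries, and tissue and age make-up cannot be told apart from the pool. Of 3324 genes with a mean of at least 50 CPM, 36 (1.08%) were at least 2-fold higher in YO2 and 22 (0.662%) at least 2-fold lower, and the median log2 ratio was -0.02. The counting interval lay wholly past 2-fold for 21 and 16 of them, and 6 and 8 differed by 2-fold the same way in mature neutrophils. Without the 10% of members with the most UMIs, the counts were 22 and 7, and without the azurophil range 8 genes were lower. Retnla, a resistin-like protein, had 0 UMIs in YO1 and 855 UMIs in YO2, which was at least 313-fold higher against a floor of 3 counts per library, but all 855 came from 9 cells. Immunoglobulin transcripts were higher in YO2, with Igha at 13.3 and 356 CPM and Igkc at 81.1 and 756 CPM in members of YO1 and YO2. Neutrophils differed likewise, at 25.8 and 492 and 225 and 1509.8 CPM, and the part of plasma cell RNA in the members' values was not tested. Igha was found in 34 members of YO1 and 388 of YO2.

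A second group of genes higher in YO2 encodes early response and inflammatory proteins. Of 17 immediate early genes 5 were at least 2-fold higher, beside the 1.08% over all genes, and the list's median log2 ratio was 0.68 in members and 0.18 in neutrophils. Fos, a subunit of the factor AP-1, stood at 1215 and 2963 CPM, Egr1 at 144 and 362 CPM and Zfp36, which destabilises cytokine mRNA, at 1502 and 3557 CPM. Nonclassical monocytes stood higher in YO2 as well: the list's 21 genes summed to 17656 and 22999 CPM there, against 11032 and 20315 CPM in members. C1q macrophages did not share this rise, as the same genes summed to 21601 and 20947 CPM in them. After thinning, Fos was found in 54.1% and 70.00% of nonclassical monocytes and 49.7% and 82.4% of members, and Ptgs2 in 12.5% and 27.5% and 5.52% and 17.6%. In thinned C1q macrophages Fos was found in 188 of 258 and 428 of 541 cells, and Ptgs2 in 62 and 162. These shares were higher in YO2, unlike the sum of the list. Of 12 genes of the NF-kB list 3 were higher. Ptgs2, the inducible cyclooxygenase, stood at 89.2 and 364 CPM, a ratio without the added 1 CPM of 4.08 (95% counting interval 3.57 to 4.68), and at 821 and 1491 CPM in neutrophils. The chemokine gene Cxcl2 stood at 135 and 476 CPM, Osm, which encodes oncostatin M, at 98.6 and 297 CPM and the chemokine-binding receptor gene Ccrl2 at 36.2 and 131 CPM. Cd244a was at 31.03 and 92.7 CPM. These genes are also high in neutrophils, so they were read in the members under 0.2% calprotectin as well. There Fos stood at 934 and 2493 CPM, Zfp36 at 1186 and 2989.5 CPM, Jun at 339 and 868 CPM and Egr1 at 92.3 and 229 CPM. Il1b, which encodes interleukin-1 beta, stood at 237 and 732 CPM in the same cells, Cxcl2 at 15.9 and 106 CPM and Ptgs2 at 21.8 and 68.3 CPM. The YO2 value was the higher one for each of these 7 genes in those members as in all members. Those members were not free of neutrophil transcripts, whose level was also higher in YO2. The median over the neutrophil list was 2.59% and 4.77% of the neutrophil level there, and Cxcr2 stood at 11.4 and 50.7 CPM. The part of neutrophil RNA in the values of these genes was not tested. Ccnd1 at 28.8 and 93.04 CPM and Cd209a at 76.9 and 227 CPM were higher in YO2 over all members, but without the MHC class II range the log2 ratio of Ccnd1 was -1.15.

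Genes lower in YO2 included those of azurophil granules and of the cell cycle. Elane, neutrophil elastase, had 1740 UMIs in YO1 and 0 in YO2, at least 528-fold lower, and 93.0% of the YO1 UMIs came from 10 cells. Mpo, myeloperoxidase, had 1842 UMIs and 1 UMI, a ratio without the added 1 CPM of 0.000596 (95% counting interval 1.51e-05 to 0.00333), and Ctsg, cathepsin G, 500 UMIs and 1 UMI, a ratio of 0.00220 (5.55e-05 to 0.0123). Prtn3, proteinase 3, stood at 421 and 7.81 CPM. In all, 4 of 6 azurophil genes and 4 of 7 cell cycle genes were at least 2-fold lower, beside 0.662% over all genes. The azurophil count rests on the 22 members of YO1 that were set apart by those genes and held 98.6% of the UMIs of Mpo, Elane, Prtn3 and Ctsg. Without them the log2 ratio was -3.08 for Elane, -1.03 for Mpo, -0.91 for Prtn3 and -0.61 for Ctsg. The values of Elane, Mpo and Ctsg rest on few UMIs. In YO1 the 22 members held 1719 of 1740 UMIs of Elane and 1837 of 1842 of Mpo. For Prtn3 and Ctsg they held 1258 of 1302 and 497 of 500. The log2 ratio without the 22 members was -3.77 for Pclaf, -2.41 for Stmn1, -2.50 for Top2a, -2.09 for Mki67, -1.56 for H2afx and -0.81 for Tuba4a. Top2a and Mki67, which mark dividing cells, stood at 169.7 and 17.8 CPM and 102 and 16.7 CPM, Stmn1 at 210.1 and 21.7 CPM and Pclaf at 115 and 3.55 CPM. In mature neutrophils of the same pools Top2a stood at 5.35 and 2.67 CPM, Mpo at 42.2 and 0 CPM and Elane at 52.3 and 0.308 CPM, so the granule genes were lower in YO2 there too. H2afx and Tuba4a, a histone and a tubulin gene, were at -2.12 and -1.83 on the log2 scale, against -0.53 and -0.37 in neutrophils.

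**Figure D5:**
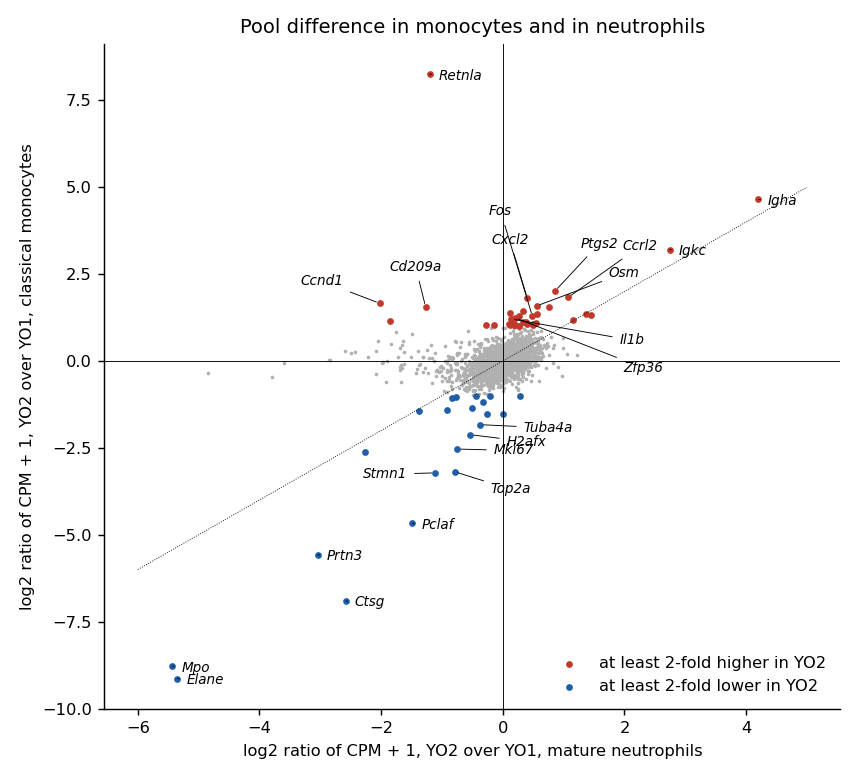
Log2 ratio of CPM + 1 in YO2 over YO1 for 3324 genes, in classical monocytes (vertical axis) and in mature neutrophils (horizontal axis); red and blue points are the 36 and 22 genes at least 2-fold higher and lower in monocytes of YO2, and the dotted line marks equal ratios. Igha and Igkc lie near the line, whereas Retnla and Ccnd1 lie above 0 in monocytes and below 0 in neutrophils.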

How the data were processed

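Whole-transcriptome libraries of 2 pools were measured, and the authors deposited 1 table of whole-number UMI counts for 21995 genes and 38072 barcodes, with 39713846 UMIs in YO1 and 41839786 in YO2. The build is mm10 per the submitters' processing notes. The sources used here name no aligner, annotation or method of calling cells, and sample tags were not analysed here. Barcodes were kept from 200 UMIs and 100 genes upward if their mitochondrial share was below 20%. UMIs of the chosen cells were summed by pool and given as CPM, with log2 ratios and folds after adding 1 CPM, while ratios printed with an interval had none added. Counting intervals (95%, exact conditional for ratios and Clopper-Pearson for shares) cover counting error only, since each pool is 1 library and cells are not replicates, so no test was run. Genes were compared with mature neutrophils where the mean of both CPM was at least 10 in each pool, and between pools or with neighbouring populations at 50. Between neighbours and between ranges of members, a gene counted as different past 4-fold in both pools, or in YO1 alone for the azurophil range. The counts between neighbours left out the genes that set the populations. The genes named were the 15 highest and the 15 lowest by the mean log2 ratio among those past 4-fold in both pools, leaving out the genes of the rule, and the 10 largest pool differences each way. Other genes named in the report are members of the lists or were chosen after their values were seen. Nonclassical monocytes held at least 2 UMIs of Treml4 and Ace and under 5 of Ly6c2, F13a1 and Ccr2. C1q macrophages held at least 3 UMIs of C1qa, C1qb and C1qc, B cells at least 4 of Cd79a and Cd79b. Nonclassical monocytes and C1q macrophages also met the limits of the rule for Csf1r, Ngp, Cd79a and Cd3e. B cells also held no UMI of Csf1r, under 3 of Ngp and under 2% of UMIs from S100a8 and S100a9. The members and gene lists were chosen with earlier results of these data known. Promoter windows came from RefSeq and transcripts from GENCODE. The calculations used matplotlib 3.10.9, pandas 2.3.3, scipy 1.17.1 and numpy 2.4.6 under Python 3.11.15, and were tested on simulated data. Values of some genes are not reported here.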

Additional observations from a re-analysis of the deposited data

How the results depend on the processing

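Of 690 alternative values for the 30 genes named against neutrophils, 532 moved by less than the spread between the pools, 158 moved by more and none changed sign. Of 684 alternative list medians, 526 moved by less than that spread, 158 moved by more and none that stood at least 2-fold from 0 in both pools changed sign. Of 360 alternative pool ratios of 20 genes, 256 stayed within the counting interval, 103 lay outside it with the same sign and 1 changed sign, Ccnd1, at -1.15 without the MHC class II members. The counts of genes past the threshold moved more. Genes higher in monocytes numbered 2284 at 2-fold, 434 at 8-fold, 659 after centring on the median, 312 at a minimum of 50 CPM and 1746 with no minimum. Genes lower numbered 731, 23, 434 and 144 under the first 4 of these settings, 374 without members at 0.2% calprotectin, and 279 to 359 when 1 pool was left out. Genes higher in YO2 numbered 339 with no minimum and 22 without the 10% of members with the most UMIs. Genes lower in YO2 numbered 12 by the mean over cells, 7 at the stricter minimum, 520 with no minimum, 8 without the azurophil members and 7 without the largest 10%. The share of members was 4.75% in YO1 and 3.71% in YO2 at 3 UMIs of the summed markers, 3.30% and 2.63% at 8, and 3.39% and 2.74% with at least 2 UMIs of Csf1r. It was 3.55% and 2.80% without members at 2% calprotectin, and 2.71% and 1.95% without those at 0.2%. It was 3.14% and 2.12% without the MHC class II members, and 3.53% and 2.77% without the largest 10%. The alternatives that left out members by MHC class II, azurophil genes, size or 0.2% calprotectin were chosen after seeing the data. The cause of these shifts was not tested. No paired analysis was possible because each pool is 1 library and no result comes from a test. With 1 library per pool, values apart between pools have no replicate check.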

Other observations

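The shares of complement and lipid genes higher in classical monocytes than in mature neutrophils lay near the 15.7% over all compared genes. Lower genes were few in both lists, beside 3.41% over all compared genes. Of 6 compared complement genes 1 was at least 4-fold higher and 2 lower. C5ar1, a receptor for C5a and 1 of the lower genes, stood at 184 and 224 CPM against 1484 and 1583 CPM in neutrophils of YO1 and YO2. Of 18 genes of lipid mediators and lipid handling 3 were higher and 2 lower, with medians of 0.04 in YO1 and -0.14 in YO2. Pltp, a phospholipid transfer protein, had log2 ratios of 4.04 and 4.36, and Alox5ap, needed for leukotriene synthesis, -0.46 and -0.54. The inducible enzyme genes Nos2 and Arg1 had 0 UMIs in members of either pool.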
